A study of Drosophila melanogaster with 12 samples.

Results

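The 7 genes described here encode enzymes of mitochondrial fatty acid beta-oxidation in Drosophila melanogaster. They were chosen by name: whd, Mcad (listed in the deposited tables as CG12262), Arc42, Mtpalpha, Thiolase, scu and yip2. Each name was found, and the 7 genes are part of 12982 genes with read counts in all 12 libraries. Each of the 7 also passed the filter on low counts, which 12809 genes passed. The rule takes them by name, not by a measured value, but it was written with earlier results of these data known.

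RNA was sequenced from whole adult flies of the Canton S background, 10 to 11 days old, in 4 groups of 3 libraries. The wildtype group carried no mutation and had no obese parent. The other groups were heterozygous for a mutation of AkhR, the receptor for adipokinetic hormone: het flies came from non-obese parents, paternal flies from an obese father and maternal flies from an obese mother. The labels give neither the sex of the flies nor the kind of mutation, nor do they give the number of flies in a library. As labelled, the parental groups differ from het by the obese parent, and from wildtype by genotype and parent together.

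Fatty acids enter mitochondria as carnitine esters, and whd encodes carnitine palmitoyltransferase 1, which makes these esters at the outer membrane. Inside, each turn of beta-oxidation shortens the chain through an acyl-CoA dehydrogenase, an enoyl-CoA hydratase, a hydroxyacyl-CoA dehydrogenase and a thiolase, and releases acetyl-CoA. Adipokinetic hormone acts on the fat body, the insect's fat store, and its receptor promotes the release of stored lipid that this pathway burns.

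AkhR itself (listed as GRHR) was checked as the gene named by the genotype. Levels are given as CPM, the read count scaled to library size with TMM factors, as mean ± SD of 3 libraries. Wildtype flies had 82.3 ± 4.33 CPM of AkhR and het flies 79.0 ± 6.59, while paternal flies had 78.4 ± 4.08 and maternal flies 79.8 ± 4.52. The groups overlapped, and het differed from wildtype by a log2 value of -0.06 (SE 0.0648, edgeR adjusted p = 0.804). The count of reads on this gene thus did not separate the genotypes, and it is no check of the labels where a mutation leaves the transcript in place. Libraries held 17212029 to 21370713 reads on listed genes. Maternal replicate 1 stood apart from the others, with 6.38% of its reads on cytosolic ribosomal protein genes against 5.48 to 5.85% in the other 11. Markers of flight muscle, fat body, oenocytes, midgut and photoreceptors were present. Markers of the male accessory gland summed to 1928 to 2382 CPM per library. Yolk protein genes, markers of the female fat body and ovary, summed to only 11.97 to 18.01 CPM. In every library these markers thus point to mostly male flies, which the labels do not state. Some marker sums differed between groups: photoreceptor markers summed to 9224 to 9651 CPM in wildtype and 8215 to 8589 CPM in the other 9 libraries, and accessory gland markers to 2263 to 2382 CPM and 1928 to 2130 CPM. Midgut markers summed to 2032 to 2162 CPM in wildtype and 1453 to 1868 CPM in the others, with Jon25Bi, a midgut protease gene, at 709 ± 61.2 CPM in wildtype and group means of 312 to 357 CPM in the others, which did not pass the test (edgeR adjusted p from 0.205 to 0.274). Of 3 accessory gland markers, 1 passed at a lower level in het (edgeR adjusted p = 0.0433) and in paternal flies (0.0363) against wildtype. For the mean of the 3 heterozygous groups against wildtype, 1 passed (0.00532). Of 3 photoreceptor markers, 1 passed in het against wildtype (0.0415), also lower. For that mean 2 passed (smallest edgeR adjusted p = 0.0111). In maternal against wildtype 0 of either list passed. The part of these marker differences in the values below was not tested. In whole-fly RNA, fewer cells of a type and less RNA per cell cannot be told apart. Single genes made up most of the accessory gland and photoreceptor sums. In wildtype, Acp36DE had a mean of 1768 CPM of 2310 in its list, and ninaE 8294 of 9440. Acp36DE, Acp26Aa, Arr1 and Jon25Bi lie on 2L, the arm of AkhR. The other accessory gland, photoreceptor and midgut markers lie on 3L or 3R. The part of the arm in these differences was not tested.

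Genome positions are those of the deposited tables on the dm3 build, counted from 1. The gene whd lies on chromosome 2R from 6356978 to 6366073 on the minus strand. Mcad lies on 3L from 7712461 to 7714572 on the plus strand, within the long gene CG32373 on the same strand, which had 45 to 74 reads per library. Arc42 is on 3R from 15703470 to 15705034, plus strand. The genes of the trifunctional protein are apart from each other, Mtpalpha on 2L from 9573563 to 9576768 and Thiolase, whose current name is Mtpbeta, on 2R from 19754171 to 19756126, both on the minus strand. The gene scu is on X from 17985281 to 17986889 and yip2 on 2L from 9915253 to 9917220, both on the plus strand. Just after yip2, and on its strand, lie CG4598, CG4594 and CG4592, genes annotated to the same pathway, which begin 1397, 2939 and 4412 bases past its end. AkhR is also on 2L, 2.86 Mb from Mtpalpha and 3.20 Mb from yip2. Current annotation gives whd 4 transcripts of 9 exons, Mtpalpha 2 transcripts of 5 exons, scu 2 transcripts of 2 to 3 exons, and the other members 1 transcript each, of 3 exons in Mcad and Arc42 and 4 exons in Thiolase and yip2. The deposited tables listed no altered exon for any member, 0 of 35 entries over 5 tables. Each table listed such an exon for only 71 to 99 genes, of 13040 over all tables. The count of 0 therefore says little about the exons of the members. Strand use in counting is not stated, so reads in the 171 bases that whd shares with CG11777 on the other strand cannot be assigned to either gene.

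Set on a scale per length, 6 of the 7 genes were abundant and Arc42 was not. Over the 12 libraries the highest deposited FPKM (a level scaled by gene length and by library size) belonged to yip2, the mitochondrial 3-ketoacyl-CoA thiolase, at a mean of 311.6 ± 9.54 (SD, n = 12). Mcad, the medium-chain acyl-CoA dehydrogenase, had 303.4 ± 13.5 FPKM. These neighbours in the order were close: yip2 exceeded Mcad in 11 of 12 libraries, paternal replicate 1 being the exception, and their ranges of 299 to 337 and 286 to 334 FPKM overlapped. Below them stood scu, a mitochondrial hydroxyacyl-CoA dehydrogenase that also acts on steroids, at 158 ± 15.7 FPKM, and Thiolase, the beta subunit of the trifunctional protein, at 124 ± 7.55 FPKM. The order of scu above Thiolase held in 12 of 12 libraries, although their ranges over all libraries overlapped. Mean FPKM was 91.3 ± 6.35 for whd and 90.7 ± 2.95 for Mtpalpha, the alpha subunit with hydratase and dehydrogenase activity. These levels did not differ beyond their spread, and whd was the higher of the pair in 7 of 12 libraries. Arc42, annotated as a short-chain acyl-CoA dehydrogenase, had 6.05 ± 0.551 FPKM, with 134 to 192 reads per library, and was the lowest member in all 12.

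**Figure D1:**
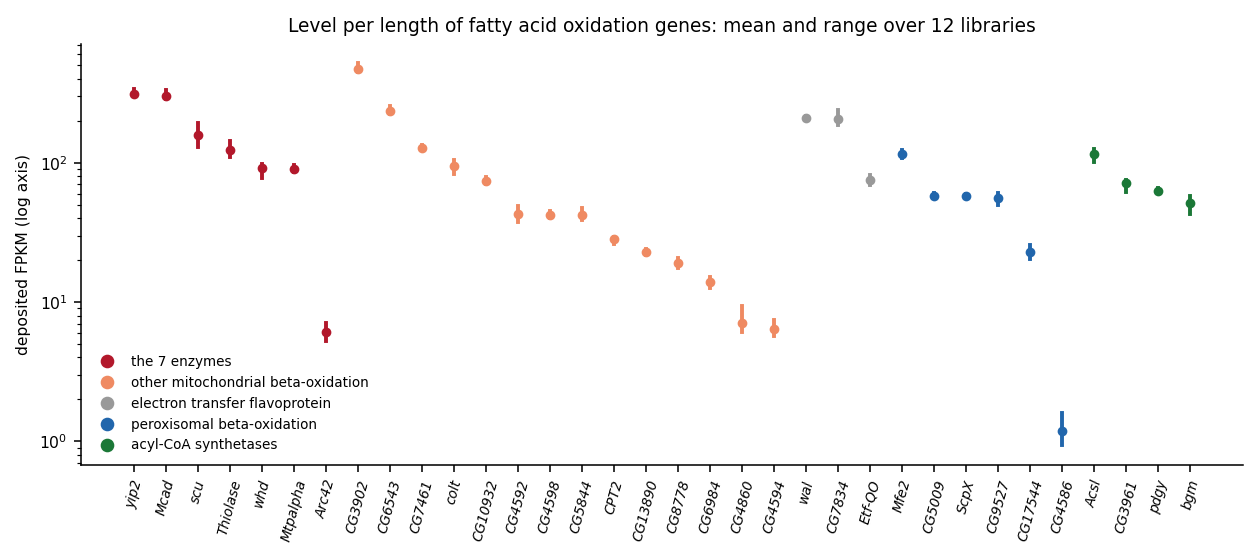
Deposited FPKM (log axis) of the 7 enzyme genes and of other fatty acid oxidation genes. Points are means and bars the range over 12 libraries: 6 of the 7 have means from 90.7 to 311.6 FPKM, and Arc42 stands at 6.05.

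The plot of levels per length places the members among related genes. In mean FPKM, 6 of the members ranked between the 89.9th and 96.9th percentile of all genes, and Arc42 at the 29.96th. Among the 14 other genes annotated to mitochondrial beta-oxidation, CG3902, an acyl-CoA dehydrogenase picked out here after its values were seen, had 475 ± 21.3 FPKM, more than any of the 7. The carnitine carrier gene colt had 94.0 ± 4.71 FPKM and CPT2, the inner membrane carnitine palmitoyltransferase, had 28.3 ± 0.891 FPKM, below whd at the step before it. The 3 genes beside yip2 had lower means, 42.3 FPKM for CG4598, 6.43 for CG4594 and 42.5 for CG4592.

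Mtpalpha, the alpha subunit of the trifunctional protein, was below Thiolase, its beta subunit, in level per length in 12 of 12 libraries. The ratio of Mtpalpha to Thiolase FPKM was 0.735 ± 0.0344 over 12 libraries, and ran from 0.671 in maternal replicate 1 to 0.810 in wildtype replicate 1. By group (n = 3 each) wildtype had 0.755 ± 0.0518, het 0.732 ± 0.0110, paternal 0.743 ± 0.0291 and maternal 0.709 ± 0.0333, and the groups overlapped.

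The share of all listed reads on the 7 genes was 0.175 ± 0.00384% in wildtype flies and 0.181 ± 0.00301% in het flies. Paternal flies had 0.183 ± 0.00491% and maternal flies 0.186 ± 0.0118%. Its extremes were 0.171% in wildtype replicate 2 and 0.199% in maternal replicate 1. The coefficient of variation of CPM over 12 libraries was 2.90% for Mtpalpha, 3.04% for yip2, 4.12% for Mcad, 5.76% for Thiolase, 6.65% for whd, 9.05% for Arc42 and 9.70% for scu. The median over 9219 genes with a mean of at least 10 CPM was 5.86%. Mtpalpha, yip2 and Mcad lay below this median and scu above it. The 9219 genes were not matched to the members in level, and genes near 10 CPM vary more from read sampling alone. A low value here is therefore no measure of steadiness at a given level.

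In the comparisons between groups no member passed the test. With edgeR's quasi-likelihood test and Benjamini-Hochberg adjustment over 12809 genes, 0 of 7 members had an adjusted p under 0.05 in het against wildtype, where 0.593% of all genes passed, in paternal against wildtype (0.523%) or in maternal against wildtype (0.344%). The count was also 0 in paternal against het (0.00781% of genes), maternal against het (0.0156%) and maternal against paternal (0.0156%). It was 0 for the mean of the 3 heterozygous groups against wildtype (1.49%) and for any difference among the 4 groups (0.445%). DESeq2, limma-trend and an edgeR fit with replicate number added also gave 0 in each of these tests. The shares of all genes depended on the fit. With replicate number added, 284, 206 and 227 genes passed in het, paternal and maternal against wildtype. Without it, as in the main fit, these were 76, 67 and 44. At an unadjusted p under 0.05, 2 members passed in maternal against wildtype, where 12.1% of all genes did, 1 in maternal against het (4.15%) and 1 in the mean of the heterozygous groups against wildtype (14.6%). The other 5 tests had 0, against 10.7, 10.5, 2.11, 2.75 and 8.06% of genes. The comparisons with wildtype share its 3 libraries and are not independent of each other. No label says that libraries came from separate cultures, only that each experimental replicate gave 1 set of samples. The spread behind the p-values is therefore that of the libraries, which may be technical.

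**Figure D2:**
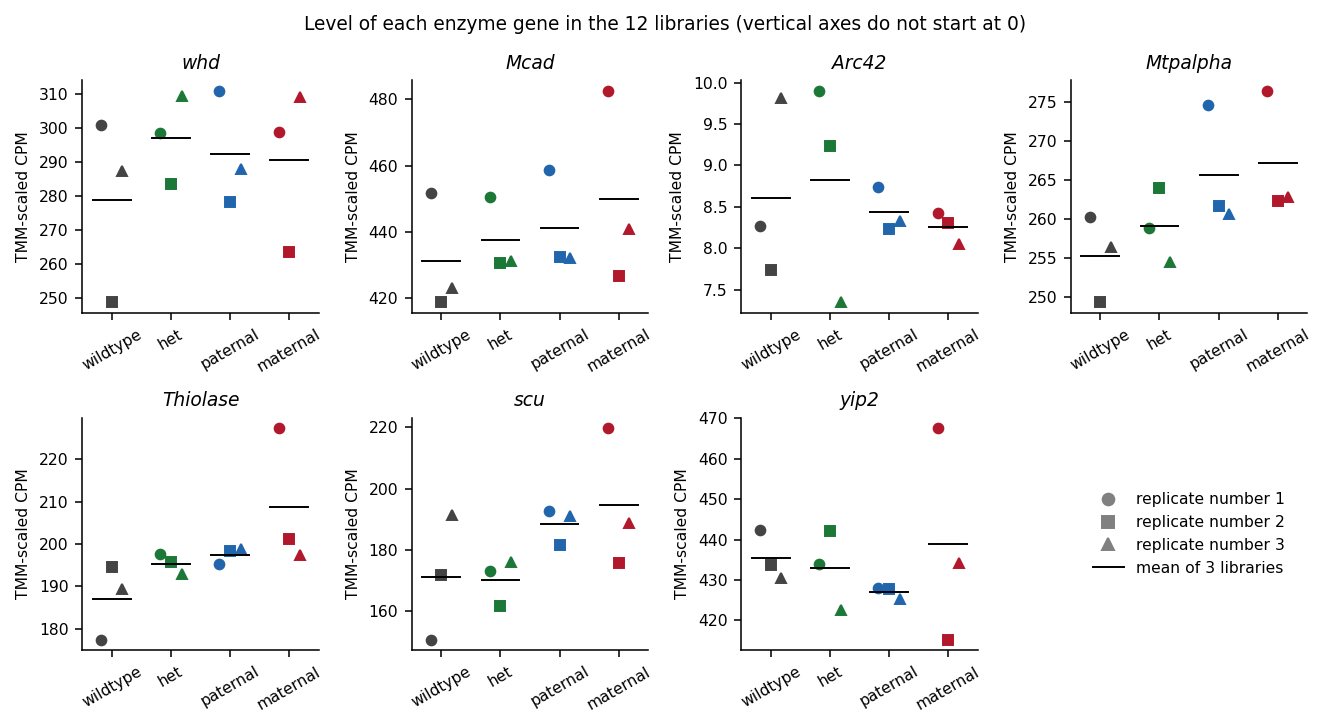
TMM-scaled CPM of each gene in each library, by group, with the mean of 3 libraries as a line and the replicate number as the symbol. Vertical axes do not start at 0. Maternal replicate 1 is the highest of the 12 libraries for Mtpalpha, Thiolase, Mcad, scu and yip2.

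For the entry step, whd had 300.8, 248.6 and 287.4 CPM in wildtype replicates 1, 2 and 3 and 298.7, 283.4 and 309.5 CPM in the het replicates. Flies with an obese father had 311.0, 278.1 and 288.0 CPM, and those with an obese mother 298.9, 263.3 and 309.2 CPM. All groups overlapped, with wildtype replicate 2 the lowest library. The log2 difference from wildtype was 0.09 in het (SE 0.0711, adjusted p = 0.701 in edgeR). It was 0.07 in paternal flies (adjusted p = 0.803) and 0.06 in maternal flies (adjusted p = 0.768).

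Of the acyl-CoA dehydrogenases, Mcad had 451.8, 418.8 and 423.0 CPM in wildtype replicates 1, 2 and 3 and 450.5, 430.6 and 431.3 CPM in the het replicates. Flies with an obese father had 458.8, 432.6 and 432.2 CPM, and those with an obese mother 482.5, 426.6 and 440.8 CPM. The groups overlapped, and in each of them replicate 1 was the highest library. The difference from wildtype was at most 0.06 on the log2 scale, in maternal flies (SE 0.0522, edgeR adjusted p = 0.653). Arc42 varied from 7.35 CPM in het replicate 3 to 9.90 CPM in het replicate 1, so the het group alone spanned the whole range. Wildtype and het means were 8.61 ± 1.07 and 8.83 ± 1.32 CPM, and paternal and maternal means were 8.43 ± 0.269 and 8.26 ± 0.191 CPM.

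Mtpalpha, the alpha subunit of the trifunctional protein, had 260.2, 249.3 and 256.4 CPM in wildtype replicates 1, 2 and 3 and 258.9, 263.9 and 254.6 CPM in the het replicates. Flies with an obese father had 274.6, 261.7 and 260.7 CPM, and those with an obese mother 276.4, 262.3 and 262.9 CPM. All 3 paternal and all 3 maternal libraries were above all 3 wildtype libraries, a separation by a small margin. The log2 difference was 0.06 in paternal flies (SE 0.0446, edgeR adjusted p = 0.709) and 0.07 in maternal flies (SE 0.0446, adjusted p = 0.562).

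Thiolase, the beta subunit, had 177.3, 194.6 and 189.3 CPM in wildtype replicates 1, 2 and 3 and 197.6, 195.7 and 192.9 CPM in the het replicates. Flies with an obese father had 195.3, 198.4 and 198.8 CPM, and those with an obese mother 227.4, 201.2 and 197.4 CPM. The parental groups again lay above wildtype without overlap, while het replicate 3 fell below wildtype replicate 2. Its difference in maternal against wildtype flies was the smallest p of any member in any group test, with a log2 value of 0.16 (SE 0.0535, 95% interval 0.05 to 0.27), or 1.12-fold, and an edgeR unadjusted p of 0.00841 with an adjusted p of 0.245. Maternal replicate 1, which also had the high ribosomal protein share, was the highest library; without it the log2 value was 0.09 (adjusted p = 0.616), and the part of that library's makeup in the difference was not tested. Leaving out maternal replicate 3 gave 0.20 (adjusted p = 0.0681), the lowest adjusted p over all settings. In the mean of the heterozygous groups against wildtype, Thiolase differed by 0.10 (SE 0.0440, unadjusted p = 0.0356, edgeR adjusted p = 0.298).

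The hydroxyacyl-CoA dehydrogenase gene scu had 150.7, 171.7 and 191.3 CPM in wildtype replicates 1, 2 and 3 and 173.1, 161.6 and 176.2 CPM in the het replicates. Flies with an obese father had 192.7, 181.7 and 191.1 CPM, and those with an obese mother 219.6, 175.7 and 188.9 CPM. The 3 wildtype libraries were spread widely, and maternal replicate 1 was again the highest. The log2 difference from wildtype was -0.01 in het (SE 0.0844), 0.14 in paternal (SE 0.0842, edgeR adjusted p = 0.602) and 0.19 in maternal flies (SE 0.0842, unadjusted p = 0.0446, adjusted p = 0.402). Against het it was 0.15 in paternal (SE 0.0842, adjusted p = 1.00) and 0.19 in maternal flies (SE 0.0843, unadjusted p = 0.0372, edgeR adjusted p = 0.993). Without maternal replicate 1 the maternal values were 0.09 against wildtype (adjusted p = 0.806) and 0.10 against het (adjusted p = 0.998), and without wildtype replicate 1 the value against wildtype was 0.11 (adjusted p = 0.683). All 3 paternal libraries were above all 3 het libraries, while the maternal and het libraries overlapped.

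The thiolase gene yip2 had 442.4, 433.7 and 430.4 CPM in wildtype replicates 1, 2 and 3 and 433.8, 442.2 and 422.6 CPM in the het replicates. Flies with an obese father had 428.0, 427.7 and 425.2 CPM, and those with an obese mother 467.6, 415.2 and 434.1 CPM. Maternal flies held both the highest and the lowest library, and the 3 paternal libraries lay just below the 3 wildtype ones. The log2 difference from wildtype was -0.03 in paternal flies (SE 0.0473, edgeR adjusted p = 0.891).

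Separation without overlap was counted for all members. It held for 3 of 7 in paternal against wildtype, where 19.2% of all genes separated, for 2 of 7 in maternal against wildtype (15.1%) and for 1 of 7 in paternal against het (8.59%). It held for 0 members in het against wildtype (19.4%), maternal against het (8.43%) and maternal against paternal (6.43%).

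**Figure D3:**
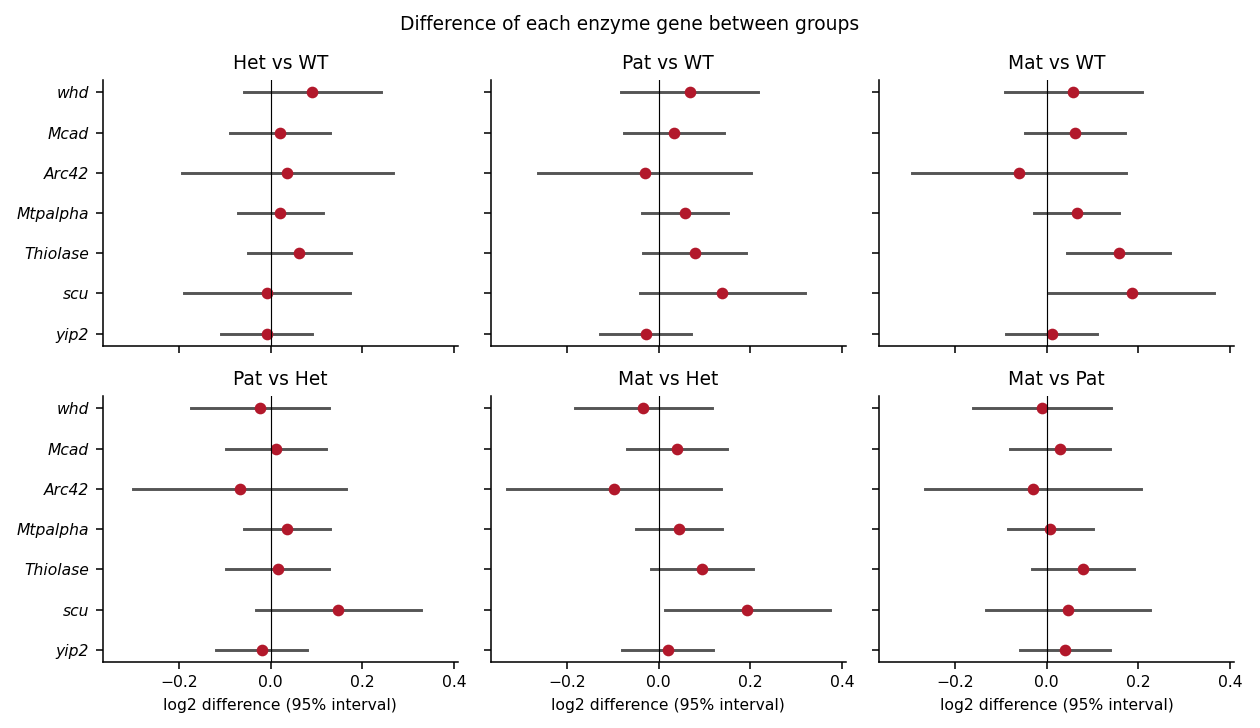
Log2 difference of each gene in the 6 pairs of groups, from edgeR, with 95% intervals. Of the intervals, those of Thiolase and scu in maternal against wildtype and of scu in maternal against het exclude 0, before adjustment over genes. Without maternal replicate 1 these log2 values were 0.09, 0.09 and 0.10.

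As a set, the 7 genes had a median log2 difference of 0.02 in het, 0.06 in paternal and 0.06 in maternal against wildtype, with 5, 5 and 6 members above 0. Over all genes tested the medians were -0.01, -0.01 and -0.01, and 47.9, 47.9 and 46.6% were above 0. Against het the median was 0.01 in paternal flies and 0.04 in maternal flies, and maternal against paternal it was 0.03, with 4, 5 and 5 members above 0 and 50.2, 47.7 and 49% of all genes. The medians over all genes were 0.000231, -0.00486 and -0.00169 in these comparisons. The maternal values depended on maternal replicate 1, the library that stood apart. Without it 3 of 7 members were above 0 against het (median -0.01), 1 of 7 against paternal (median -0.02) and 5 of 7 against wildtype (median 0.04). Over the fits that left out 1 library, the median ran from 0.000353 to 0.07 in het against wildtype, from 0.01 to 0.07 in paternal against wildtype and from -0.01 to 0.02 in paternal against het. The lowest of both wildtype comparisons came without wildtype replicate 2, which also lowered the median for the mean of the heterozygous groups to 0.02, and that of paternal against het came without paternal replicate 1. The highest maternal medians, 0.10 against wildtype, 0.06 against het and 0.07 against paternal, came without maternal replicate 2. For the mean of the heterozygous groups against wildtype the median was 0.05, with 5 members above 0 and 46.2% of all genes. The plot of differences shows the precision behind these values. The 95% intervals reached from 0.795-fold, for Arc42 in maternal against het, to 1.30-fold, for scu in the same comparison, so larger differences lay outside the interval of every member in every pair of groups.

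Each of the authors' deposited tables, which compare a pair of groups, gave similarly small values from their own fit. In the authors' deposited table of maternal against wildtype, the log2 value was 0.13 for Thiolase and 0.13 for scu. If the deposited score is read as minus 10 times log10 of adjusted p, the smallest adjusted p of any member in the authors' deposited tables was 0.647, for scu in paternal against wildtype.

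Mtpalpha and yip2 share chromosome arm 2L with AkhR, the arm on which 2.16% of 2454 genes passed in het against wildtype, 2.08% in paternal and 1.34% in maternal against wildtype. Neither gene passed in any of these.

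The other genes of the pathway were read from the same fit. Of the 14 other mitochondrial beta-oxidation genes, 0 passed in each of the 8 group tests with edgeR, and the smallest p for any difference among the 4 groups belonged to CG4592, the neighbour of yip2 (edgeR adjusted p = 0.735). The electron transfer flavoprotein and its oxidoreductase, which take electrons from the acyl-CoA dehydrogenases, had 0 of 3 passing. Its beta subunit gene CG7834 had 218 ± 20.3 CPM in wildtype and 199 ± 5.49 CPM in het flies, and 215 ± 2.77 and 226 ± 16.8 CPM in paternal and maternal flies. Its edgeR adjusted p over the 4 groups was 0.622. Peroxisomal beta-oxidation genes had 0 of 6, acyl-CoA synthetases, which activate fatty acids, 0 of 4, and the regulators Hnf4, srl and ERR 0 of 3. Among 12 genes of the tricarboxylic acid cycle, which takes up the acetyl-CoA released, 0 passed. SdhB, a subunit of succinate dehydrogenase, had the smallest p over the 4 groups (edgeR unadjusted p = 0.255, adjusted p = 0.796). In the peroxisomal, synthetase and regulator lists, CG4586, CG3961 and Hnf4 had the smallest p by edgeR over 4 groups. Unadjusted, these were 0.201, 0.386 and 0.404 (adjusted p = 0.776, 0.848 and 0.856). At an unadjusted p under 0.05 in the 4-group test, 0 genes of these 6 lists were found, against 8.06% of all genes. In the pairwise tests, CG7834 had an unadjusted edgeR p of 0.0404 in het against wildtype, at a log2 value of -0.14, and of 0.00823 in maternal against het, at 0.18 (adjusted p = 0.434 and 0.993). Of all genes, 10.7 and 4.15% had an unadjusted edgeR p under 0.05 in these comparisons. The other mitochondrial genes are named here after their values were seen. In paternal against wildtype 1 of 14 had such a p (CG4592), where 10.5% of all genes did. The count was also 1 of 14 in maternal against wildtype (colt, 12.1% of genes) and maternal against paternal (CG6543, 2.75%). Maternal replicate 1 was the highest of the 12 libraries for CG7834 (245.0 CPM), colt (152.8 CPM) and CG6543 (285.5 CPM). The other 4 lists had 0 in every group test.

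While no group test called a member, the test of the replicate numbers called whd. Each group has libraries numbered 1 to 3, and the series design speaks of a set from each experimental replicate, but the labels do not state that a number marks a set. Tested within groups, 1 of 7 members passed, where 4.3% of all genes did. The gene was whd: replicate 2 was the lowest library in all 4 groups, with a mean of 268 ± 15.7 CPM (n = 4) against 302 ± 5.85 in replicate 1 and 299 ± 12.5 in replicate 3. The 4 libraries numbered 2, from 249 to 283 CPM, lay below all 8 others. The log2 difference of replicate 2 from replicate 1 was -0.17 (SE 0.0380), and the edgeR adjusted p over the 3 numbers was 0.0185. The call held in 8 of 12 fits that left out a library and ended without wildtype replicate 2 (0.0883), het replicate 3 (0.0559), paternal replicate 1 (0.0629) or maternal replicate 2 (0.0648).

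Mcad showed another arrangement, with replicate 1 the highest library in all 4 groups. Its mean was 461 ± 14.9 CPM in replicate 1, 427 ± 6.11 in replicate 2 and 432 ± 7.26 in replicate 3, and the 4 libraries numbered 1 lay above the other 8. It missed the threshold in edgeR (adjusted p = 0.0762) and passed in DESeq2 (adjusted p = 0.0419). The other 5 members had edgeR adjusted p from 0.539 to 0.881, and scu passed when wildtype replicate 1 was left out (0.0322). For yip2 the 4 libraries numbered 1 were all above their group means and the 4 numbered 3 all below, by at most 0.09 on the log2 scale.

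**Figure D4:**
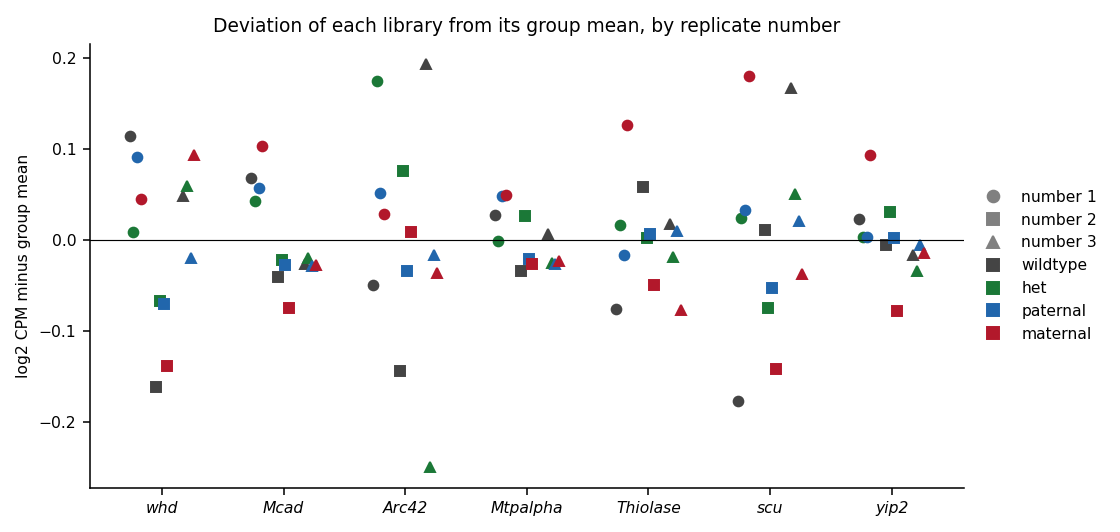
Deviation of each library from the mean of its group (log2 CPM), for the 7 genes, with replicate number as symbol and group as colour. The 4 libraries numbered 2 are all below 0 for whd, and the 4 numbered 1 are all above 0 for Mcad.

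Several related genes differed between replicate numbers as well. Among 14 other mitochondrial beta-oxidation genes 0 passed and 2 had an unadjusted p under 0.05 with edgeR, where 20.3% of all genes did. Of the peroxisomal genes 2 of 6 passed, CG17544 (edgeR adjusted p = 0.00774) and CG9527 (0.0155), both annotated as acyl-CoA oxidases. CG17544 had 65.5 ± 2.12 CPM in replicate 3 against 55.3 ± 1.90 in replicate 1 and 58.2 ± 2.72 in replicate 2, and CG9527 had 166 ± 4.78 against 146 ± 7.72 and 153 ± 2.65. For both genes replicate 3 was the highest library in all 4 groups. The gene CG17544 overlaps CG31798 on the other strand over 2031 bases, and that gene had 1002 to 1366 reads per library, so their reads cannot be told apart. The acyl-CoA synthetase gene bgm had 114 ± 7.91 CPM in replicate 1, 134 ± 6.53 in replicate 2 and 134 ± 8.52 in replicate 3 (edgeR adjusted p = 0.0270). ERR, the oestrogen-related receptor that controls genes of energy metabolism, ran the other way from the peroxisomal genes, with 47.8 ± 2.42 CPM in replicate 1, 45.4 ± 0.635 in replicate 2 and 41.5 ± 1.05 in replicate 3 (edgeR adjusted p = 0.0233).

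These calls depended on single libraries. CG17544 kept its call in 11 of 12 fits that left out a library and lost it without wildtype replicate 3 (edgeR adjusted p = 0.0524). CG9527 kept it in 8 of 12 and ERR in 8 of 12, and both lost it without wildtype replicate 3, het replicate 1, het replicate 3 or maternal replicate 3. The highest adjusted p was then 0.0853 for CG9527 and 0.118 for ERR. For bgm it held in 5 of 12, and was lost without het replicates 1 or 2, any paternal library, or maternal replicates 1 or 3 (adjusted p up to 0.207). ERR also missed the threshold in DESeq2 (0.0521).

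Tissue markers and AkhR differed between the replicate numbers too. Of 6 flight muscle markers 2 passed, Mhc (myosin heavy chain; edgeR adjusted p = 0.000159) and up (troponin T; 0.000204), and the summed muscle list was 2000 to 2254 CPM in replicate 1, 2205 to 2382 in replicate 2 and 2418 to 2655 in replicate 3. Of 4 fat body markers 1 passed, Lsp2 (0.0473), with list sums of 3949 to 4037, 4010 to 4184 and 4110 to 4586 CPM. Of 3 midgut markers 1 passed, Jon65Aiii (0.0273), with sums of 1457 to 2127, 1798 to 2032 and 1453 to 2162 CPM. None of the markers measured in all libraries was at 0; the fat body marker Fbp1 was not tested and is not among them. Calls of Lsp2 and Jon65Aiii each held in 3 of 12 fits that left out a library, and those of Mhc and up in 12 of 12. Muscle and fat body sums had their lowest values in replicate 1, and whd in replicate 2. Single markers differed in this. Mean Lsp2 was lowest in replicate 2, at 711 CPM against 760 and 1067 in replicates 1 and 3. Means of the muscle markers Act88F and fln were also lowest in replicate 2, those of Mhc, up and wupA in replicate 1 and that of TpnC4 in replicate 3. Of the other fat body markers, Rfabg was lowest in replicate 1, and Lsd-1 and Lsd-2 in replicate 3. AkhR had 77.3, 71.6, 73.7 and 75.03 CPM in the libraries numbered 2 and 80.4 to 84.8 CPM in the other 8 (edgeR adjusted p = 0.0194). The part of tissue makeup in the differences between numbers was not tested.

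The members were compared in pairs over the 12 libraries, which share their scaling and their RNA composition. Of 21 pairs, 19 had a Pearson r above 0, with a median of 0.419. With other genes of at least 10 CPM, the median r of a member ran from -0.0539 (Mtpalpha) to 0.0131 (Arc42). Several of the 21 values depended on maternal replicate 1. Without it r went from 0.453 to -0.556 for Thiolase and yip2 and from 0.263 to -0.549 for scu and yip2. Some rose instead, as for whd and Mcad, from 0.606 to 0.729. The pair Mtpalpha and Mcad had r = 0.80 (permutation p = 0.0015, adjusted over 21 pairs 0.0315) and was the only pair to pass, with Spearman's rho of 0.573 (permutation p = 0.0553, adjusted 0.460). By rho 0 pairs passed. Without paternal replicate 1 and maternal replicate 1, the libraries farthest from the median of Mtpalpha, r was 0.434. The call was lost without maternal replicate 1 (r = 0.666, adjusted p = 0.224) and, at r of 0.765 to 0.803, without wildtype replicate 2, het replicate 3, paternal replicates 1 or 3, or maternal replicate 3 (adjusted p from 0.0510 to 0.0933). Taken within groups, as deviations from the group means, r was 0.81 (permutation p adjusted 0.0236). That permutation shuffled the 12 deviations freely, although removing the group means ties them together, so this p is too small.

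**Figure D5:**
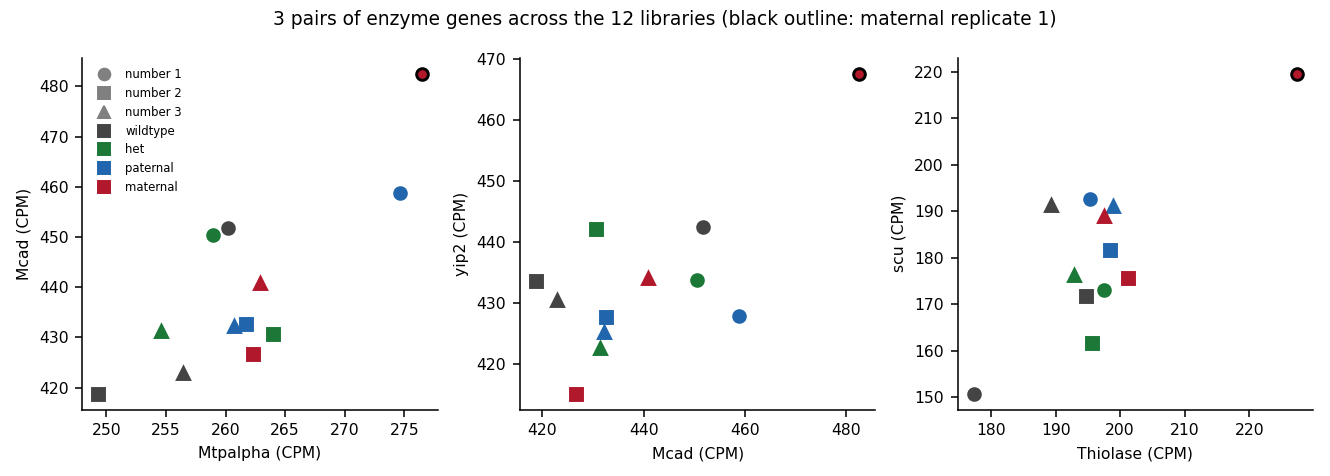
TMM-scaled CPM of 3 pairs of genes in the 12 libraries, with groups as colours and replicate numbers as symbols. Maternal replicate 1, outlined in black, is the upper right point in each panel.

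Thiolase and scu had r = 0.776 (permutation p = 0.00932, adjusted 0.0979) and rho = 0.357 (permutation p = 0.257, adjusted 0.706), and r was -0.13 without wildtype replicate 1 and maternal replicate 1. Mcad and yip2 had r = 0.697 (permutation p = 0.0188, adjusted 0.132), which was 0.419 without paternal replicate 1 and maternal replicate 1. In the plot of pairs, maternal replicate 1 is the outermost point. It ranked at the top of the 12 libraries for 5 of the 7 members, and at place 5 for whd and Arc42.

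The genes most alike to each member in pattern were taken as those with the highest Pearson r of log2 CPM over the 12 libraries, among 9213 other genes with a mean of at least 10 CPM. For Thiolase these were SdhB (r = 0.937) and CG10219 (0.928), whose current name is SdhD, both encoding subunits of succinate dehydrogenase. For scu they were awd (0.956), a nucleoside diphosphate kinase, and CG4169 (0.954), currently named UQCR-C2, a subunit of respiratory complex III. Mtpalpha was most like CG7024 (0.914) and CG6255 (0.914), the latter currently named Scsalpha2. Mcad was most like CG8292 (0.924) and CG43339 (0.909). For whd the leading genes were Ubi-p63E (0.903), a polyubiquitin gene, and CG6051 (0.863). For Arc42 they were Eaf6 (0.872) and CG3689 (0.848), and for yip2 CG3509 (0.896), currently named BigH1, and CG17327 (0.889). These are descriptions of 12 libraries, with r picked as the highest of many, and r without single libraries was not computed for them. SdhB, like Thiolase, had its lowest value in wildtype replicate 1 (351 CPM) and its highest in maternal replicate 1 (416 CPM).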

How the data were processed

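RNA was measured by sequencing of polyA-selected libraries from whole flies, 3 per group. RNA of frozen flies was extracted with Trizol before TruSeq library preparation, per the labels' protocols. The authors deposited 5 tables of genes. Per the file headers, these give raw read counts, FPKM, log2 values (fold changes and regularised expression) and adjusted p-values as a score, on the D_melanogaster_Apr_2006 assembly. Novoalign, DESeq and dm3 are named in the submitters' processing notes. Versions, annotation and strand setting are not given in the sources consulted.

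Joining the tables gave 13040 genes with 0 disagreements, of which 58 lacked counts in some library and were left out. Tests on the deposited counts used edgeR 4.0.16 (R 4.3.3), with filterByExpr (minimum count 10, total 15), TMM scaling, and a robust quasi-likelihood fit of all 12 libraries with group means, or with group and replicate number to test the numbers. P-values were adjusted by Benjamini-Hochberg over 12809 genes, with a threshold of 0.05. The biological coefficient of variation was 0.0591. Correlations used log2 CPM with a prior count of 2 and two-sided permutation tests of 100000 resamples. FPKM was used only for levels and for the ratio of subunits, and the deposited log2 and score columns only where quoted. The fits were tested on simulated data.

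The alternatives were RLE scaling, no scaling, no filter, DESeq2 1.42.0, limma-trend (limma 3.58.1), a replicate block, the 6 libraries compared alone, and leaving out each library. No pair of libraries within a group agreed within sampling noise.

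The members and gene lists were chosen with earlier results of these data known. All 7 members were named. From each of the 6 other pathway lists, genes past the threshold in any test were named, up to 4 by smallest p. Where none passed, the gene with the smallest p over the 4 groups was named. Tissue markers that passed were not all named. Of the listed genes, CG9709, CG9707, CG4500 and desatF were not found under these names, and Fbp1 lacked counts in some library.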

Additional observations from a re-analysis of the deposited data

How the results depend on the processing

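No group test called a member under any alternative, with 0 of 7 in every fit. For the replicate numbers, DESeq2 called 2 members, whd and Mcad, without an adjusted p for Arc42, and leaving out each library gave 0 to 2, with scu gained without wildtype replicate 1. For the correlated pairs, deviations from group means gave 4 and leaving out each library 0 to 2. With a replicate block (deviations from group and number means) 2 pairs passed: Thiolase with scu and Mcad with yip2, while Mtpalpha with Mcad (r = 0.558) did not. Free shuffling ignores that deviations are tied together by the means removed. The 4 and the 2 pairs therefore rest on p-values that are too small.

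The replicate block changed no other call of a member; Thiolase in maternal against wildtype had a log2 value of 0.16 with an edgeR adjusted p of 0.108. Over all genes it raised the calls from 76 to 284 in het, 67 to 206 in paternal and 44 to 227 in maternal against wildtype, 191 to 695 for the mean of the heterozygous groups, 57 to 199 for the 4-group test, and 2 to 3 in maternal against paternal. Same-numbered libraries correlated in their deviations at a mean r across genes of 0.119 (other pairs -0.0592), and 11 of 18 pairs were above 0.1. For 11 of 12 libraries, the mean r with libraries of the other groups was highest for those of the same number. Since some pairs stayed below 0.1, the main fit did not take the numbers as pairing. Same-numbered libraries were still more alike on average, so the main p-values ignore a shared part of the spread. No member passed a group test with or without the block. DESeq2 called 119, 103 and 91 genes against wildtype and 120 in the 4-group test. Fits of the 6 libraries compared alone called 183 genes in het and 27 in maternal against wildtype, and over 1.5 times the main count in paternal against wildtype. Leaving out 1 library gave 41 to 170 genes in het, 33 to 154 in paternal and 27 to 116 in maternal against wildtype, 63 to 360 for the mean of the heterozygous groups, 32 to 123 in the 4-group test and 240 to 1021 by replicate number, so the shares of all genes beside the members' counts move by over 1.5 times as well. The call of Lsp2 by replicate number was lost with limma-trend (0.0505).

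Without scaling factors the sign turned for scu (0.0127) and yip2 (0.0116) in het against wildtype and for Arc42 (0.000396) and yip2 (0.00969) in the mean of the heterozygous groups. Differences that turned sign when a library was left out were small and never passed; their ranges were as follows. In het against wildtype, Arc42 from -0.0487 to 0.15, scu from -0.0905 to 0.0792 and yip2 from -0.0243 to 0.00828. In paternal against wildtype, Arc42 from -0.100 to 0.0743 and whd from -0.0081 to 0.128. In maternal against wildtype, Arc42 from -0.13 to 0.0445, whd from -0.018 to 0.129 and yip2 from -0.0366 to 0.055. In paternal against het, Arc42 from -0.179 to 0.0196, Mcad from -0.0141 to 0.0332 and whd from -0.0673 to 0.0112. In maternal against het, Mcad from -0.0125 to 0.082, whd from -0.0756 to 0.0371 and yip2 from -0.0279 to 0.0629. In maternal against paternal, Mcad from -0.0248 to 0.069, Mtpalpha from -0.0169 to 0.0341, scu from -0.0489 to 0.119, whd from -0.053 to 0.0598 and yip2 from -0.00807 to 0.0819. In the mean of the heterozygous groups against wildtype, Arc42 from -0.0875 to 0.0869, whd from -0.00364 to 0.134 and yip2 from -0.0246 to 0.00671. Depth limits Arc42, with 134 to 192 reads per library, more than the other members, with at least 2933.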
